A study of Mus musculus with 24 samples.

Results

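The 10 genes described here are the fibroblast growth factor (FGF) ligands Fgf1, Fgf2, Fgf7 and Fgf21, the FGF receptors Fgfr1, Fgfr2, Fgfr3 and Fgfr4, and the Sprouty feedback inhibitors Spry1 and Spry2. They were chosen by symbol from a deposited table of 24043 genes. No measured value was in the rule, but earlier results of these data were known. Of the 10, 9 were among the 12389 genes tested. The exception was Fgf1, which stayed below a mean of 1 FPKM in each of the 4 groups. FPKM is the number of fragments of a gene scaled to transcript length and to the mapped fragments of the library, so levels can be set side by side between genes. The cells were C2C12, an established line of mouse myoblasts that fuse into myotubes when serum is withdrawn, and the results rest on a single line. The study cultured them in growth medium with 10% fetal bovine serum or in differentiation medium with 2% horse serum and a supplement of insulin, transferrin and selenium. Each medium was used at 21% oxygen (normoxia) and at 2% oxygen (hypoxia), which gives 4 groups of 2 biological replicates named A and B. The number of days in culture is not given in the sources used here. The groups are called growth-normoxia, growth-hypoxia, differentiation-normoxia and differentiation-hypoxia. Of the 24 samples, the 8 RNA-seq libraries were used, and the 8 H3K27me3 chromatin libraries and 8 inputs were not analysed here.

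FGF ligands are secreted proteins that bind receptor tyrosine kinases together with heparan sulphate, and the receptors pass the signal through the adaptor Frs2 and Ras to the kinase ERK. In cultured myoblasts, Fgf2 is a mitogen that holds back differentiation, and Fgfr1 and Fgfr4 are the receptors best known in the muscle lineage. Fgf21 differs from the others in being a hormone that needs the co-receptor beta-Klotho (Klb), and in muscle it is known as a secreted product of cells under metabolic stress. Sprouty proteins are made in response to ERK activity and damp the same pathway.

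The libraries had summed values of 480018 to 534167 FPKM, with 14917 to 15672 genes above 0. Relative depth, read from the smallest steps between low values, ran from 0.633 in differentiation-hypoxia replicate B to 1 in differentiation-hypoxia replicate A. These replicates stood apart from each other: 613 tested genes differed over 2-fold in FPKM + 1 between them, against 56 to 71 in the other groups. The 10 cell cycle genes listed were 3.74 to 7.91 times higher in B than in A. Among the genes described here, the ratio of B to A in this group was 4.74 for Fgf1, 3.90 for Fgfr3, 1.58 for Fgfr2 and 0.678 for Fgf2, and 0.782 to 1.24 for the other 6. All 8 myoblast markers exceeded 1 FPKM in every library, and their sum was 617 to 1357 FPKM in normoxia and 207 to 277 FPKM in hypoxia. None of 5 endothelial and none of 5 epithelial markers exceeded 1 FPKM in any library. The leukocyte marker Cd68 was at 1.76 to 3.57 FPKM in 6 libraries and at 25.8 and 42.8 FPKM in differentiation-hypoxia, with Cd3e at 0 in all libraries and Ptprc at most at 0.0137 FPKM. Tubb3 was the highest of the neural markers, at 3.91 to 15.1 FPKM in 6 libraries and at 36.8 and 65.7 FPKM in differentiation-hypoxia. Of 5 fibroblast markers, Pdgfra, Dcn and Col1a1 passed 1 FPKM and the list summed to 29.5 to 54.9 FPKM, and of 5 adipocyte markers only Pparg did. The part of these markers and of depth in the results was not tested. Where leaving out replicate A or B of differentiation-hypoxia changed a call among the 9 tested genes, the value without it is given beside the result.

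Differentiation in normoxia went with changes in all 9 tested genes, in both directions: Fgf21, Fgfr3 and Spry1 rose, while Fgf2, Fgf7, Fgfr1, Fgfr2, Fgfr4 and Spry2 fell. Changes were fitted with limma on log2(FPKM + 1), so folds of genes near 1 FPKM are understated on that scale, and an adjusted p below 0.05 over all tested genes counted as a call. In that comparison 66.5% of all tested genes were called, 25.5% higher and 41% lower, so a count of 9 has to be read against a large background. Differentiation in hypoxia changed 5 of the 9, 1 higher and 4 lower, against 40.9% of all tested genes (23.3% higher, 17.6% lower). Hypoxia in growth medium changed 6 of the 9, 1 higher and 5 lower, against 41.4% of all tested genes (13.5% higher, 28% lower). Hypoxia in differentiation medium changed 8 of the 9, 1 higher and 7 lower, against 65.2% of all tested genes (37.5% higher, 27.7% lower). The interaction, taken as the change with differentiation at 2% oxygen less the change at 21% oxygen, was called for 5 of the 9, 2 positive and 3 negative, against 54.1% of all tested genes (35.4% positive, 18.7% negative). Without differentiation-hypoxia replicate B the counts were 5 in the comparison of media at 2% oxygen, 8 in the comparison of oxygen levels in differentiation medium and 7 in the interaction. Without replicate A they were 7, 7 and 6. The median log2 change of the 9 genes was -0.71, -0.10, -0.55, -1.41 and -0.40 in these comparisons in turn, beside -0.20, 0.07, -0.14, 0.15 and 0.27 over all tested genes. The comparisons share libraries with each other and are not independent.

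**Figure D1:**
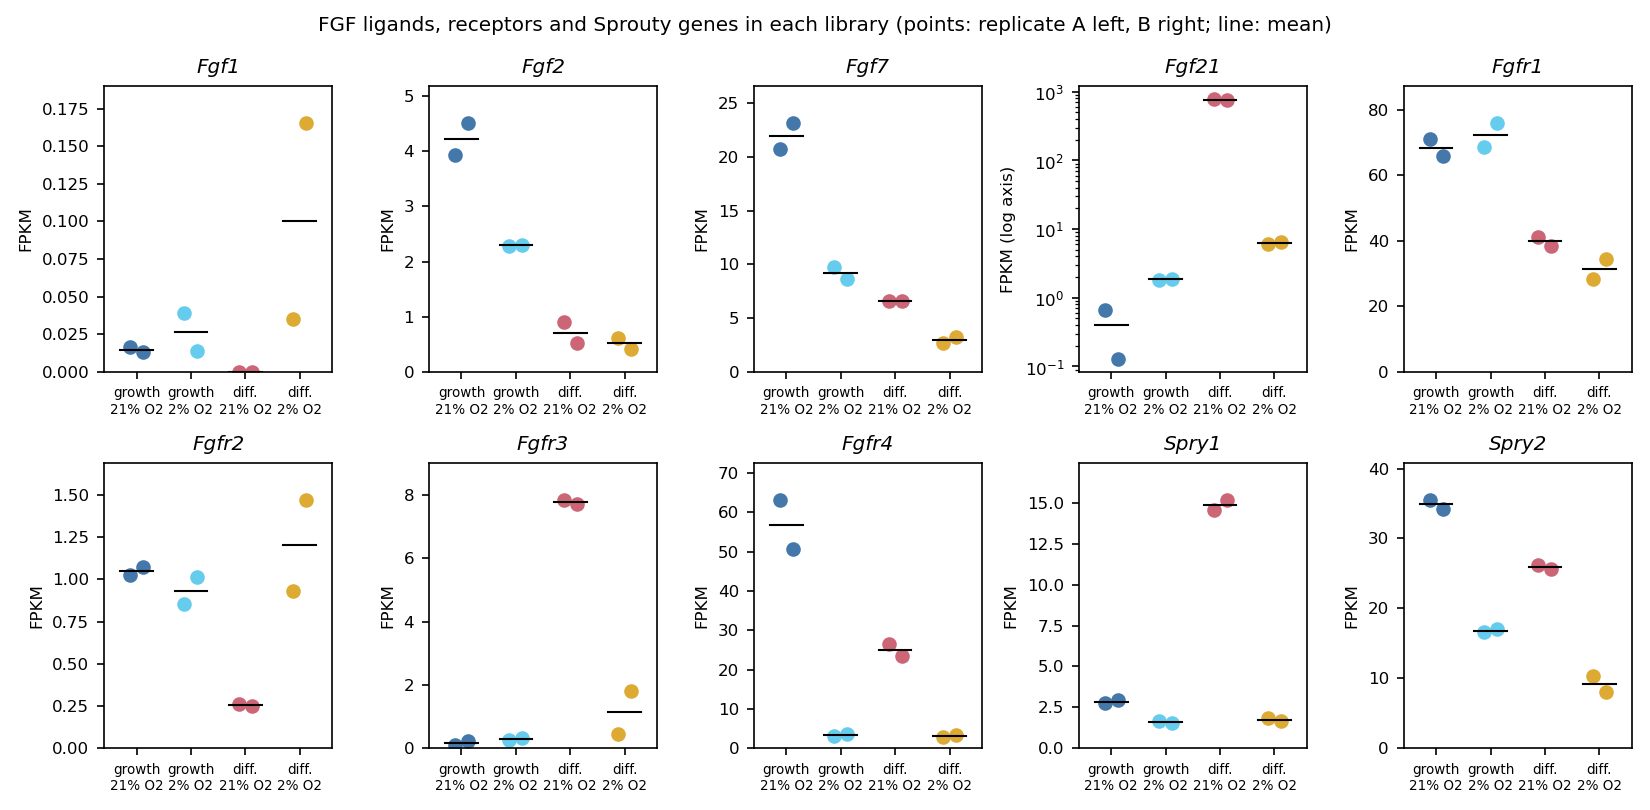
Level of each gene in FPKM (vertical axis, logarithmic for Fgf21 and linear for the rest) in the 8 libraries, by medium (growth or differentiation, diff.) and oxygen; points are replicates A (left) and B (right) and lines are group means. Fgf21 sits at 785.1 and 751.2 FPKM in differentiation-normoxia and at or below 6.52 FPKM in the other 6 libraries.

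Rescaling the libraries to each other moved the median of all tested genes by over 0.1, from -0.20 to 0.03 for differentiation in normoxia, from 0.15 to -0.03 for hypoxia in differentiation medium and from 0.27 to -0.01 for the interaction under median-of-ratios scaling. The share of all calls that were lower in normoxic differentiation went from 61.6% to 46.4%, and the share that were higher with hypoxia in differentiation medium from 57.5% to 46.5%. For hypoxia in growth medium the higher share went from 32.6% to 43.4%, and to 49.3% under upper-quartile scaling. The positive share of the interaction calls went from 65.5% to 47.3%. Among the 9 genes, this scaling ended the call of Spry2 in normoxic differentiation and added interaction calls for Fgfr1 and Spry2.

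Fgf21, Fgfr3 and Spry1 are the 3 genes that rose with normoxic differentiation, each was lower at 2% oxygen in differentiation medium, and the 250 bases before their starts are shown so that the sequence can be read beside those values. The sequences are from RefSeq on GRCm38.p6, at chr7:45615491-45615740 on the minus strand for Fgf21, chr5:33721474-33721723 on the plus strand for Fgfr3 (the more upstream of its annotated starts) and chr3:37639697-37639946 on the plus strand for Spry1. Capitals mark matches on either strand to the E-box CANNTG, bound by basic helix-loop-helix factors such as MyoD and myogenin, to the ATF4-C/EBP element TGATGNAA, to ACGTG, and to its variant GCGTG, the core letters of hypoxia response elements.
Fgf21: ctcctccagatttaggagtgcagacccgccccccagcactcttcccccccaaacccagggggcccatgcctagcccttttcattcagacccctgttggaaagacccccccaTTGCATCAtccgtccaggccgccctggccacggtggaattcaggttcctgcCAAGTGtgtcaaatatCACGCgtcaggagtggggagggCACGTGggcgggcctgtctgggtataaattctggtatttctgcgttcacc
Fgfr3: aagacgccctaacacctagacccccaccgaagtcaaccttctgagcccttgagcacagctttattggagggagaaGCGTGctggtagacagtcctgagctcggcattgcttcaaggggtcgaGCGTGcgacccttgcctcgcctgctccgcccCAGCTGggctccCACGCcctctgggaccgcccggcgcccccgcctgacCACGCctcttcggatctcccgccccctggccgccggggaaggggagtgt
Spry1: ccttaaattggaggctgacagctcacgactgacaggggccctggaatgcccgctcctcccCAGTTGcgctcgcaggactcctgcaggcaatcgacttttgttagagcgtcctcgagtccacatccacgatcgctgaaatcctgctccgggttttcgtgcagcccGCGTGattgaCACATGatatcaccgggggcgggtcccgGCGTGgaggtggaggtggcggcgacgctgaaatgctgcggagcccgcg
In the Fgf21 window an E-box of the letters CAAGTG begins 88 bases before the start and another, CACGTG, begins 50 bases before it. The core ACGTG lies on both strands inside the latter. An ATF4-C/EBP element, read here as TTGCATCA, starts 139 bases before it, and 1 match to GCGTG begins at 72 bases. The search covered 8 of the 10 genes, as no RefSeq promoter was given for Fgfr1 and Fgf1 was left out. No other window searched holds the ATF4-C/EBP element, which is present in 3.45% of 32851 promoter windows of the same length. The Fgfr3 window holds the E-box CAGCTG 97 bases before the start and 4 matches to GCGTG, and the window of its downstream start holds none of the motifs. The Spry1 window holds the E-box CAGTTG at 190 bases before the start, a further E-box, CACATG, at 76 bases, and 2 matches to GCGTG. The general E-box CANNTG is found in 66.2% of promoter windows, CAGCTG in 13.0%, ACGTG in 16.6% and GCGTG in 28.2%, so most of these matches are common. Windows of genes that fell with normoxic differentiation hold them too: that of Fgfr4 has 2 E-boxes, 1 match to ACGTG and 2 to GCGTG. The build of the authors' files is mm9, per the submitters' processing notes, and no coordinate was carried over to it.

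Fgf1, the ligand able to bind every FGF receptor, was near the limit of detection. It was listed at 0.0167 and 0.0129 FPKM in growth-normoxia, at 0.0392 and 0.0138 in growth-hypoxia, at 0 in both differentiation-normoxia libraries, and at 0.0349 and 0.165 in differentiation-hypoxia. Its values were whole multiples of a single step, within 0.05 of a fragment, and came to 1, 1, 3, 1, 0, 0, 3 and 9 fragments in that order. The 2 zeros allow up to 0.0511 and 0.0407 FPKM, which is the worth of 3 fragments. Only differentiation-hypoxia replicate B lay above the worth of 3 fragments in its own library (0.0551 FPKM), and no fold is given.

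Fgf2 was highest in growth-normoxia and fell with both differentiation comparisons. Its levels were 3.94 and 4.51 FPKM in growth-normoxia, 2.28 and 2.31 in growth-hypoxia, 0.904 and 0.515 in differentiation-normoxia, and 0.617 and 0.418 in differentiation-hypoxia. Both growth medium groups lay above every differentiation library, and the differentiation groups overlapped each other. The log2 change with differentiation was -1.62 ± 0.14 (SE; adjusted p = 9.08e-05, limma) in normoxia and -1.12 ± 0.14 (adjusted p = 0.00173) in hypoxia. Recovered fragments were 77 in growth-normoxia and 12 in differentiation-normoxia, a ratio of 6.20 with a 95% counting interval of 3.35 to 12.5. The log2 changes were -2.46 and -1.97 with a pseudocount of 0.1 in place of 1. Hypoxia in growth medium went with -0.66 ± 0.14 (adjusted p = 0.0104, limma), a call that was lost with a pseudocount of 0.1 (adjusted p = 0.0508) and without any of 3 of the 4 libraries compared (adjusted p 0.0551 to 0.0602), the exception being growth-normoxia replicate A. Hypoxia in differentiation medium gave -0.17 ± 0.14 (adjusted p = 0.336), and the fragment ratio of 1.27 of differentiation-normoxia to differentiation-hypoxia had an interval of 0.504 to 3.29. Its interaction, 0.50 ± 0.20, missed the threshold (adjusted p = 0.0748) and passed it without differentiation-normoxia replicate A (0.66, adjusted p = 0.0355) or differentiation-hypoxia replicate B (0.59, adjusted p = 0.0444). Fgf2 overlaps Nudt6, which stood at 4.62 to 7.37 FPKM. Use of strand in counting is not given in the sources used here, so the split of fragments between the genes is uncertain.

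Fgf7, known as keratinocyte growth factor and made by mesenchymal cells, was the most abundant of the 4 ligands in growth medium. It stood at 20.8 and 23.1 FPKM in growth-normoxia, 9.71 and 8.65 in growth-hypoxia, 6.55 and 6.58 in differentiation-normoxia, and 2.65 and 3.28 in differentiation-hypoxia. The 4 groups formed a descending order with no overlap between neighbours. Its log2 change was -1.60 ± 0.12 (adjusted p = 4.43e-05, limma) with differentiation in normoxia and -1.36 ± 0.12 (adjusted p = 0.000567) in hypoxia. Hypoxia went with -1.17 ± 0.12 (adjusted p = 0.000555) in growth medium and -0.94 ± 0.12 (adjusted p = 0.000510) in differentiation medium. The interaction was 0.24 ± 0.17 (adjusted p = 0.272), and -0.05 after median-of-ratios scaling, so the data gave no call of a different response to differentiation at the 2 oxygen levels. By root-mean-square difference of centred log2 values over the 8 libraries, the genes most like Fgf7 were Gcnt4 (0.128), Prkg2 (0.162) and the transcription factor gene Egr3 (0.172).

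Fgf21 moved furthest of the 9 with normoxic differentiation, with hypoxia in differentiation medium and in the interaction. In growth-normoxia it was at 0.670 and 0.129 FPKM, and in growth-hypoxia at 1.83 and 1.87. It reached 785.1 and 751.2 FPKM in differentiation-normoxia and stayed at 6.05 and 6.52 in differentiation-hypoxia. No 2 groups overlapped. The fragments recovered were 8 and 2 in growth-normoxia, 28 and 27 in growth-hypoxia, 9218 and 11066 in differentiation-normoxia, and 104 and 71 in differentiation-hypoxia. Per unit of depth, differentiation-normoxia held 2101 times as many fragments as growth-normoxia, with a 95% counting interval of 1142 to 4381 that is set by the 10 fragments in growth medium. That ratio depended on the growth-normoxia library used, at 1144 (580.4 to 2650) without replicate B and 5928 (1641 to 48955) without replicate A. Differentiation-hypoxia held 123 times fewer than differentiation-normoxia (106 to 144), and 3.37 times as many as growth-hypoxia (2.48 to 4.65). Such intervals cover counting error only. The log2 change was 9.13 ± 0.18 (adjusted p = 2.11e-07, limma) with differentiation in normoxia, 1.35 ± 0.18 (adjusted p = 0.00191) in hypoxia and -6.72 ± 0.18 (adjusted p = 5.01e-07) with hypoxia in differentiation medium. In growth medium the change with hypoxia was of opposite sign, at 1.05 ± 0.18 (adjusted p = 0.00403), or 2.21 with a pseudocount of 0.1. The interaction was -7.78 ± 0.25 (adjusted p = 3.11e-06).

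The levels of Fgf21 can be set beside 2 gene lists and its chromosomal neighbours. Of 10 genes of the ATF4 stress response, of which Fgf21 is a known target, all 10 rose with normoxic differentiation (median log2 change 3.77; 25.5% of all tested genes were called higher) and 9 rose with hypoxia in growth medium (median 2.81; 13.5% of all), where Fgf21 changed by 1.05. In differentiation medium 6 of the 10 fell with hypoxia and 4 were not called (median -0.93; 27.7% of all were called lower and 65.2% either way), beside -6.72 for Fgf21. Atf4 itself was at 177 and 161 FPKM in growth-normoxia, 426 and 428 in growth-hypoxia, 705 and 722 in differentiation-normoxia, and 334 and 316 in differentiation-hypoxia. It moved in the direction of Fgf21 with normoxic differentiation and with hypoxia in either medium (log2 change -1.13 in differentiation medium, adjusted p = 3.55e-05, limma), and fell with differentiation in hypoxia (-0.39, adjusted p = 0.00976), where Fgf21 rose. Of 10 myotube genes, all 10 rose with normoxic differentiation (median 7.33) and all 10 fell with hypoxia in differentiation medium (median -8.08), against the same 25.5% and 27.7%. With hypoxia in growth medium 7 of them fell and none rose, against 28% of all called lower. In growth medium the summed level of the myotube list was 28.7 and 36.4 FPKM in normoxia and 3.92 and 4.88 FPKM in hypoxia, and that of Fgf21 went the other way. The 3 genes most like Fgf21 over the 8 libraries were the muscle structural genes Myom2 (root-mean-square difference 0.651), Myl4 (0.806) and Csrp3 (0.847). Myom2 fell in growth-hypoxia, from 0.770 and 0.564 to 0.244 and 0.129 FPKM (log2 change -0.49, adjusted p = 0.0116, limma), in the direction opposite to Fgf21. Myl4 (0.04, adjusted p = 0.905) and Csrp3 (-0.13, adjusted p = 0.61) were not called in that comparison. With differentiation in hypoxia, where Fgf21 changed by 1.35, Myom2 rose by 1.30 (adjusted p = 0.000493, limma). There Myl4 (0.12, adjusted p = 0.676) and Csrp3 (0.28, adjusted p = 0.254) were not called. Of the myotube genes 4 rose and 0 fell there, and of the ATF4 genes 3 rose and 4 fell. The shares of all tested genes were 23.3% higher and 17.6% lower.

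Next to Fgf21 in the RefSeq gene order lie Fut1, a fucosyltransferase gene, and Izumo1 beyond it. These neighbours were looked at after the values of Fgf21 were seen. Fut1 was at 0.0832 and 0.0642 FPKM in growth-normoxia, 0.108 and 0.206 in growth-hypoxia, 6.44 and 7.59 in differentiation-normoxia, and 0.0385 and 0.122 in differentiation-hypoxia. It was high in the same 2 libraries as Fgf21, with a log2 change of 2.90 (adjusted p = 2.56e-06, limma) with normoxic differentiation and -2.89 (adjusted p = 2.25e-06) with hypoxia in differentiation medium. Unlike Fgf21 it was not called with hypoxia in growth medium (0.11, adjusted p = 0.467). Izumo1 was listed at 0 in 6 libraries and at 0.637 and 0.625 FPKM in differentiation-normoxia. On the other side, Bcat2, a branched-chain aminotransferase gene, was at 35.6 and 30.2 FPKM in growth-normoxia, 15.4 and 15.0 in growth-hypoxia, 39.2 and 39.8 in differentiation-normoxia, and 9.79 and 10.4 in differentiation-hypoxia. Like Fgf21, Bcat2 fell with hypoxia in differentiation medium (-1.87, adjusted p = 8.19e-06, limma), and unlike Fgf21 it fell with hypoxia in growth medium (-1.06, adjusted p = 0.000361). Its change with normoxic differentiation was 0.26 (adjusted p = 0.0475). Hsd17b14, the next gene on that side, fell with normoxic differentiation, where Fgf21 rose (-1.37, adjusted p = 0.000792), and gave -0.10 with hypoxia in differentiation medium (adjusted p = 0.683).

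**Figure D2:**
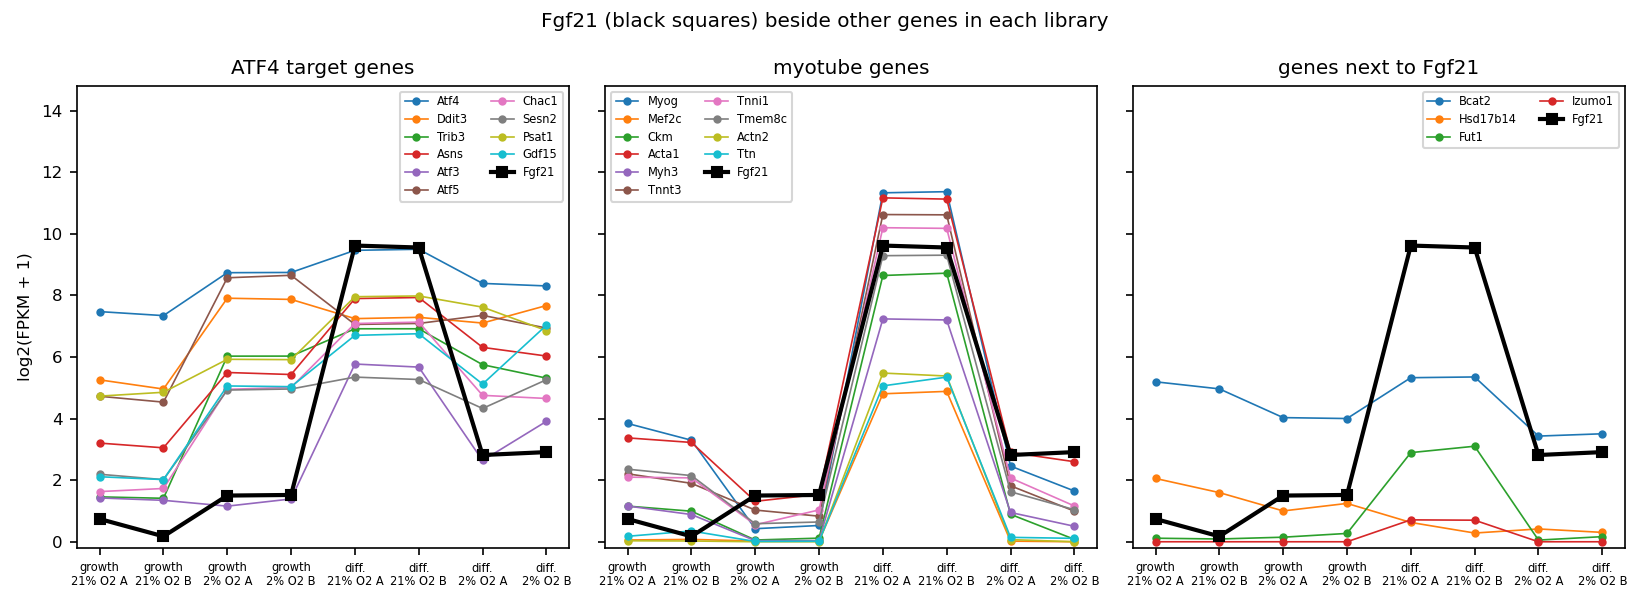
Log2(FPKM + 1) in each of the 8 libraries (horizontal axis) of Fgf21 (black squares) beside 10 ATF4 target genes (left), 10 myotube genes (middle) and its 4 nearest genes (right); lines only join the values of a gene. The ATF4 target Trib3 goes from 119.8 FPKM in both differentiation-normoxia libraries to 52.8 and 38.8 in differentiation-hypoxia, and Fgf21 from 785.1 and 751.2 to 6.05 and 6.52.

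Fgfr1 was the most abundant receptor in every library and was lower in differentiation medium. It stood at 70.9 and 65.9 FPKM in growth-normoxia, 68.6 and 75.8 in growth-hypoxia, 41.2 and 38.3 in differentiation-normoxia, and 28.4 and 34.3 in differentiation-hypoxia. The growth medium groups overlapped each other and lay above all 4 differentiation libraries. Its log2 change with differentiation was -0.77 ± 0.11 (adjusted p = 0.000883, limma) in normoxia and -1.18 ± 0.11 (adjusted p = 0.000689) in hypoxia, and -0.50 in normoxia after median-of-ratios scaling. Hypoxia in growth medium gave 0.08 ± 0.11 (adjusted p = 0.617). Hypoxia in differentiation medium gave -0.34 ± 0.11 (adjusted p = 0.0319), and this call was lost without differentiation-normoxia replicate A (-0.29, adjusted p = 0.155) or B (-0.39, adjusted p = 0.0737), or without differentiation-hypoxia replicate A (-0.21, adjusted p = 0.104). It was also lost with array quality weights (adjusted p = 0.0735) or when the fit held no library of the growth medium groups (adjusted p = 0.0789), and held at -0.47 without differentiation-hypoxia replicate B (adjusted p = 0.00600). The interaction was -0.41 ± 0.16 (adjusted p = 0.0609). It passed the threshold under median-of-ratios scaling (-0.73, adjusted p = 0.00370), under upper-quartile scaling (-0.64, adjusted p = 0.00574) and without differentiation-hypoxia replicate B (-0.54, adjusted p = 0.0111).

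Fgfr4, the receptor next in abundance to Fgfr1 in normoxia, was lower at 2% oxygen in both media. It was at 63.2 and 50.6 FPKM in growth-normoxia and 26.6 and 23.5 in differentiation-normoxia, but at 3.26 and 3.61 in growth-hypoxia and 2.97 and 3.31 in differentiation-hypoxia. The 4 hypoxic libraries overlapped between media and lay below every normoxic library. Mean FPKM was 16.6-fold lower in hypoxia in growth medium (log2 change -3.70 ± 0.13, adjusted p = 1.73e-05, limma) and 7.99-fold lower in differentiation medium (-2.65 ± 0.13, adjusted p = 7.55e-06). Differentiation lowered Fgfr4 2.27-fold in normoxia (-1.14 ± 0.13, adjusted p = 0.000325), and gave -0.10 ± 0.13 in hypoxia (adjusted p = 0.597). The interaction of 1.05 ± 0.19 was called (adjusted p = 0.00372). The genes most like Fgfr4 were Vcam1 (root-mean-square difference 0.187), which is a cell adhesion receptor of myoblasts, Islr (0.244) and Ramp2 (0.369). Vcam1 went from 62.4 and 68.4 to 3.92 and 5.04 FPKM with hypoxia in growth medium.

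Fgfr3 was highest in differentiation-normoxia and low elsewhere. It was at 0.0991 and 0.226 FPKM in growth-normoxia, 0.263 and 0.341 in growth-hypoxia, 7.85 and 7.73 in differentiation-normoxia, and 0.463 and 1.80 in differentiation-hypoxia. No 2 groups overlapped, although replicate B of the last group was 3.90 times replicate A. The log2 change with normoxic differentiation was 2.92 ± 0.28 (adjusted p = 0.000127, limma), or 4.95 with a pseudocount of 0.1. Hypoxia in differentiation medium went with a mean 6.87-fold lower (-2.12 ± 0.28, adjusted p = 0.000570), at -2.59 without replicate B of that group and -1.65 without replicate A. Differentiation in hypoxia gave 0.64 ± 0.28 (adjusted p = 0.109), which became 1.11 (adjusted p = 0.000734) without differentiation-hypoxia replicate A and 0.17 (adjusted p = 0.260) without replicate B, so this comparison rests on which replicate is used. The interaction was -2.28 ± 0.39 (adjusted p = 0.00301), and -3.58 with a pseudocount of 0.1. Foxo6 (0.149), Eif1ad (0.170) and Serpinb9f (0.186) were the genes most like Fgfr3 by root-mean-square difference. Next to Fgfr3 lies the mitotic gene Tacc3, which was at 4.08 and 20.7 FPKM in differentiation-hypoxia replicates A and B and at 4.50 and 4.14 in differentiation-normoxia, where Fgfr3 was high.

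Fgfr2 was the only gene of the 9 that rose with hypoxia in differentiation medium. It stood at 1.03 and 1.07 FPKM in growth-normoxia, 0.852 and 1.01 in growth-hypoxia, 0.261 and 0.252 in differentiation-normoxia, and 0.931 and 1.47 in differentiation-hypoxia. The differentiation-normoxia libraries were low and the other 6 lay within 0.852 to 1.47 FPKM. Its log2 change was -0.71 ± 0.13 (adjusted p = 0.00298, limma) with normoxic differentiation and 0.80 ± 0.13 (adjusted p = 0.00171) with hypoxia in differentiation medium, where the means differed 4.69-fold. With a pseudocount of 0.1 these changes were -1.69 and 1.84, and the interaction of 0.88 ± 0.19 (adjusted p = 0.00713) was 2.00. Differentiation in hypoxia gave 0.18 ± 0.13 (adjusted p = 0.321). That value was 0.36 (adjusted p = 0.0206) without differentiation-hypoxia replicate A and -0.000205 without replicate B.

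Set together, the receptor transcripts were mainly Fgfr1 and Fgfr4 in normoxia and mainly Fgfr1 in hypoxia. The 4 receptors summed to 126 ± 12.4 FPKM (SD, n = 2) in growth-normoxia, 76.9 ± 5.52 in growth-hypoxia, 72.9 ± 4.39 in differentiation-normoxia and 36.8 ± 5.70 in differentiation-hypoxia. Fgfr1 made up 54.2% and 54.6% of the sum in the normoxic growth and differentiation groups, and 93.9% and 85.3% in the hypoxic ones. Fgfr4 made up 44.9% in growth-normoxia and 34.4% in differentiation-normoxia, against 4.46% and 8.58% in hypoxia. Fgfr3 reached 10.7% in differentiation-normoxia and was at 2.91% or less in the other group means. In cultures measured whole, fewer cells of a type and less RNA per cell cannot be told apart.

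**Figure D3:**
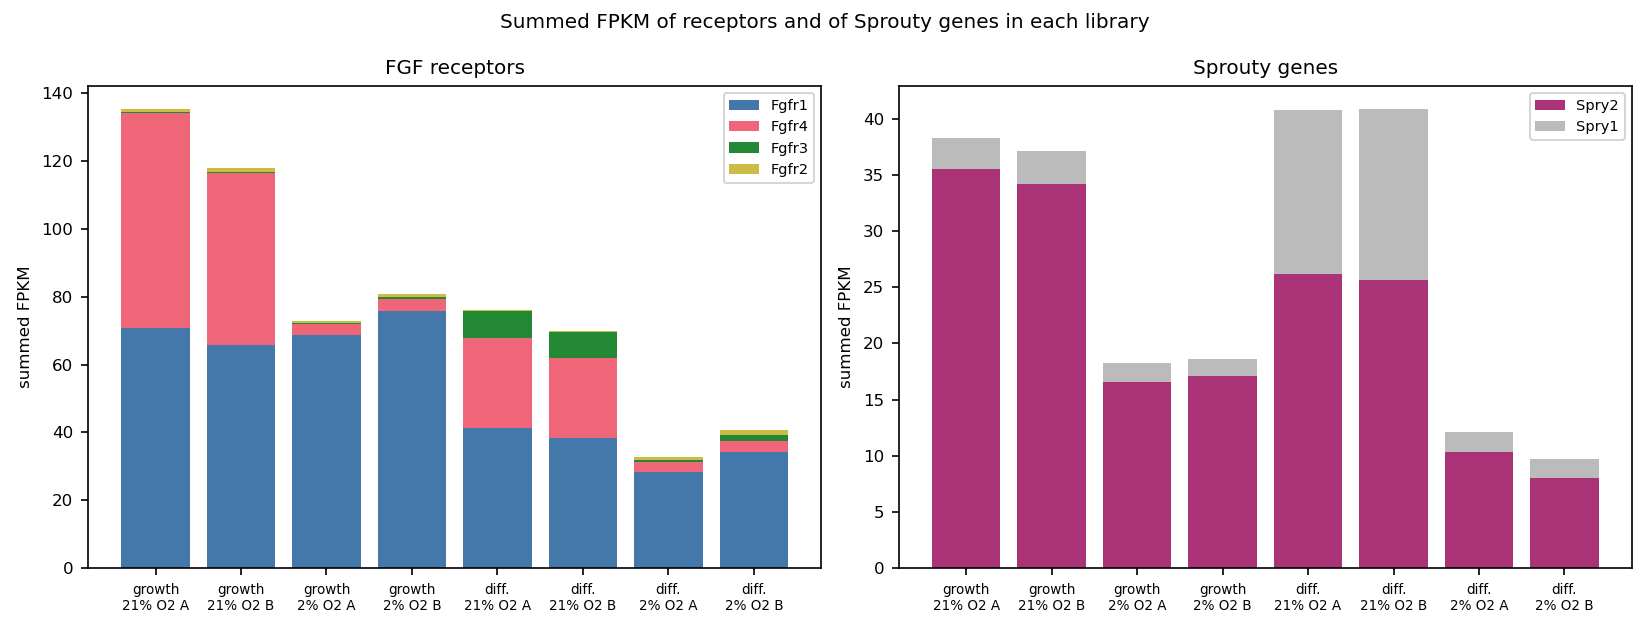
Summed FPKM (vertical axis from 0) of the 4 FGF receptors (left) and of Spry1 and Spry2 (right) in each of the 8 libraries, stacked by gene. Fgfr4 makes up 42.95% to 46.7% of the receptor sum in the growth-normoxia libraries and 4.46% in both growth-hypoxia libraries.

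Spry1 was highest in differentiation-normoxia, while Spry2 was lower in both hypoxic groups than in both normoxic ones. Spry1 was at 2.74 and 2.93 FPKM in growth-normoxia, 1.69 and 1.55 in growth-hypoxia, 14.6 and 15.2 in differentiation-normoxia, and 1.83 and 1.64 in differentiation-hypoxia. The hypoxic groups overlapped each other and lay below both normoxic groups. Its log2 change was 2.05 ± 0.099 (adjusted p = 7.06e-06, limma) with normoxic differentiation, 0.06 ± 0.099 (adjusted p = 0.666) with hypoxic differentiation, -0.55 ± 0.099 (adjusted p = 0.00531) with hypoxia in growth medium and -2.54 ± 0.099 (adjusted p = 2.55e-06) in differentiation medium. The last of these is an 8.58-fold lower mean, and the interaction was -1.99 ± 0.14 (adjusted p = 7.70e-05). The genes most like Spry1 were Lrrn1 (root-mean-square difference 0.0886), Zcchc5 and the complement gene Cfb. In the RefSeq gene order Spata5 lies between Fgf2 and Spry1. Spata5 was at 10.2 and 11.2 FPKM in differentiation-normoxia against 1.99 to 5.64 FPKM in the other 6 libraries, while Fgf2 was low in differentiation-normoxia.

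Spry2 was at 35.5 and 34.2 FPKM in growth-normoxia, 16.6 and 17.1 in growth-hypoxia, 26.2 and 25.7 in differentiation-normoxia, and 10.3 and 8.07 in differentiation-hypoxia. No 2 groups overlapped, and both hypoxic groups lay below both normoxic groups. Hypoxia went with a log2 change of -1.01 ± 0.11 (adjusted p = 0.000839, limma) in growth medium and -1.41 ± 0.11 (adjusted p = 6.04e-05) in differentiation medium. Differentiation in hypoxia gave -0.82 ± 0.11 (adjusted p = 0.00235). Differentiation in normoxia gave -0.41 ± 0.11 (adjusted p = 0.0165), a call that was lost after scaling by median of ratios (-0.14, adjusted p = 0.418) or upper quartile (-0.28, adjusted p = 0.132), and without growth-normoxia replicate A (adjusted p = 0.0722) or differentiation-normoxia replicate A (0.0701) or B (0.0855). The interaction of -0.40 ± 0.16 missed the threshold (adjusted p = 0.0724). It was called after scaling by median of ratios (-0.71, adjusted p = 0.0268) or upper quartile (-0.62, adjusted p = 0.0438), and the p was 0.0483 with array quality weights, adjusted the same way. It was also called without differentiation-hypoxia replicate A (-0.56, adjusted p = 0.00326). Spry1 and Spry2 summed to 37.7 ± 0.815 FPKM (SD, n = 2) in growth-normoxia and 40.8 ± 0.0658 FPKM in differentiation-normoxia, with the share of Spry1 at 7.53% and 36.4%. In hypoxia the sums were 18.4 ± 0.244 FPKM in growth medium and 10.9 ± 1.73 FPKM in differentiation medium, with Spry1 at 8.79% and 16.0%.

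**Figure D4:**
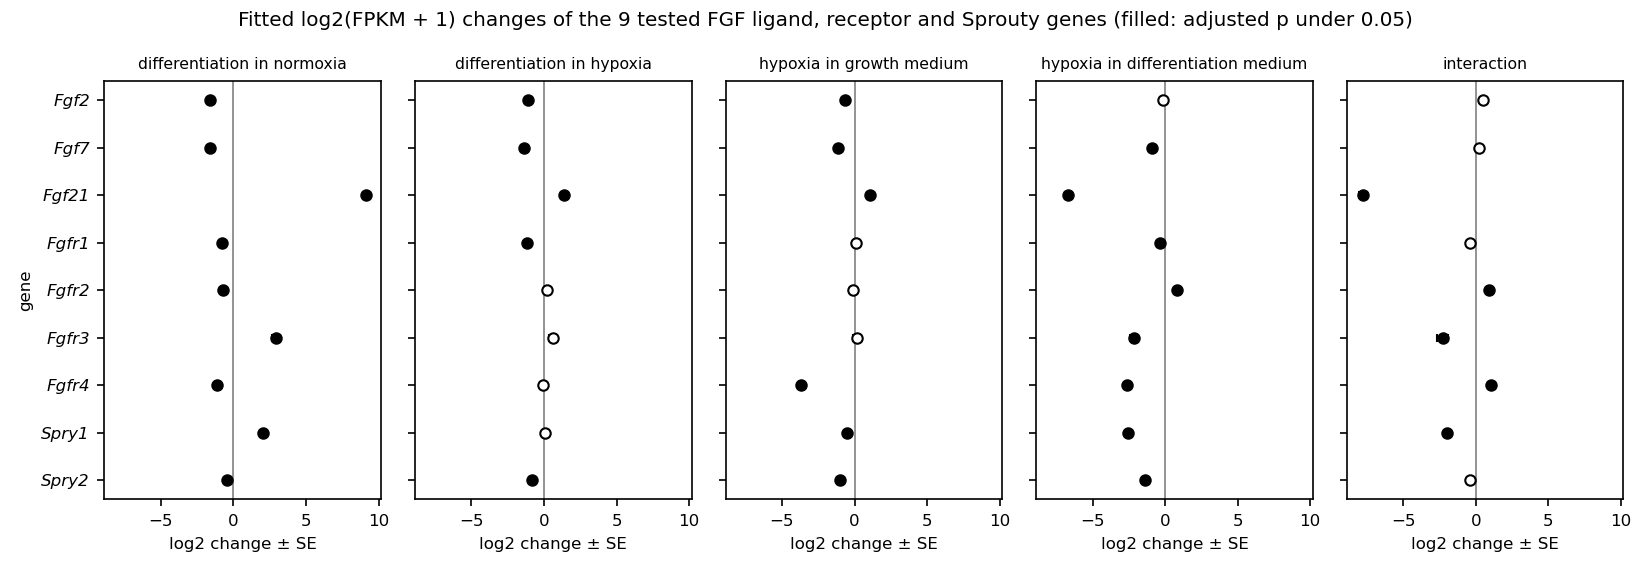
Fitted log2(FPKM + 1) change ± SE (horizontal axis; most bars are narrower than the point) of the 9 tested genes in the 5 comparisons; filled points have an adjusted p below 0.05 and open points do not. Fgf21 lies at 9.13 with normoxic differentiation and -6.72 with hypoxia in differentiation medium, and Fgfr4 at -3.70 and -2.65 in the 2 hypoxia panels.

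The other FGF genes were mostly below the filter. Of 18 other FGF genes in the table, only Fgf11 was tested, an intracellular family member that does not act through FGF receptors. Fgf11 was at 8.77 and 8.88 FPKM in growth-normoxia, 46.6 and 45.7 in growth-hypoxia, 19.1 and 21.1 in differentiation-normoxia, and 44.6 and 36.4 in differentiation-hypoxia. Both hypoxic groups lay above both normoxic groups, with log2 changes of 2.26 in growth medium (adjusted p = 4.99e-05, limma) and 0.97 in differentiation medium (adjusted p = 0.000301). Fgf18 reached 1.33 FPKM in differentiation-hypoxia replicate B and 0.194 in replicate A.

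Co-receptors and heparan sulphate genes, which set how ligands meet their receptors, were tested for 16 of 25 listed. With normoxic differentiation 3 rose and 10 fell, against 66.5% of all tested genes called either way (25.5% higher, 41% lower). The largest changes were those of the sulphatase Sulf2 (-3.23), the syndecan Sdc1 (-1.63), the decoy-like receptor Fgfrl1 (1.50) and Sulf1 (-1.16). With hypoxia in differentiation medium 7 rose and 5 fell, against 65.2% of all, and Sulf2 (2.48) and Fgfrl1 (-2.18) turned the other way. Fgfrl1 was at 35.6 and 34.4 FPKM in differentiation-normoxia and at 6.56 to 12.4 FPKM in the other 6 libraries, so it was high in the same libraries as Fgfr3 and Spry1. Differentiation in hypoxia gave 0 higher and 8 lower of the 16, against 40.9% of all called (23.3% higher, 17.6% lower). Hypoxia in growth medium gave 5 higher and 7 lower, against 41.4% (13.5% higher, 28% lower). Klb, the co-receptor that Fgf21 needs, was listed at 0 in all 8 libraries, and Kl did not exceed 0.0175 FPKM. Of the 20 transducers between receptor and ERK, 4 rose and 5 fell with normoxic differentiation, a smaller share than the 66.5% of all tested genes, with Mapk3 (ERK1) at -2.05, Plcg1 at -1.45, Frs2 at -1.23 and Map2k1 (MEK1) at 0.76. Hypoxia in differentiation medium went with 8 higher and 4 lower (65.2% of all called), including Map2k1 at 1.13 and Frs2 at 0.97, and differentiation in hypoxia with 6 higher and 4 lower (40.9%). Hypoxia in growth medium changed 4 of the 20 (41.4% of all called), where Map2k1 rose from 37.3 and 38.0 to 107 and 104 FPKM.

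Among 11 tested feedback inhibitors other than Spry1 and Spry2, normoxic differentiation went with 1 higher and 6 lower, hypoxic differentiation with 0 higher and 4 lower, hypoxia in growth medium with 1 and 3, and hypoxia in differentiation medium with 3 and 3. Over all tested genes 66.5%, 40.9%, 41.4% and 65.2% were called either way in these comparisons, and 41%, 17.6%, 28% and 27.7% were called lower. Taken either way, the counts of the 11 were near or below the background. The share called lower was above its background with differentiation at both oxygen levels, and this difference was not tested. Il17rd (Sef), a membrane inhibitor of FGF signalling, fell by 1.60 on the log2 scale with normoxic differentiation. The ERK phosphatase Dusp6 was at 15.0 and 15.2 FPKM in differentiation-normoxia and at 1.20 and 3.39 in differentiation-hypoxia, a log2 change of -2.37 ± 0.29 (adjusted p = 0.000432, limma). Dusp6 and Dusp9 (-1.05), like Spry1 and Spry2, were lower with hypoxia in differentiation medium, while Spred2 (1.32) and Dusp4 (1.40) were higher there. Spry4 was at 1.48 and 1.82 FPKM in differentiation-normoxia and at 0.128 and 0.543 in differentiation-hypoxia. The Dusp4 call rests on replicates at 9.32 and 26.3 FPKM and was lost without either differentiation-normoxia library. Of 10 ERK target genes, 4 rose and 4 fell with normoxic differentiation, 1 rose and 3 fell with hypoxia in growth medium, and 1 rose and 7 fell with hypoxia in differentiation medium. The shares of all tested genes called in these were 66.5%, 41.4% and 65.2%, and 27.7% were called lower in the last. The 7 included Etv5 (-2.45), Ier2 (-2.16), Egr1 (-2.08) and Myc (-2.05), and the median of the 10 was -1.82 beside 0.15 over all tested genes. The replicates of differentiation-hypoxia differed here, as the list summed to 75.4 FPKM in A and 148.6 FPKM in B. In differentiation-normoxia it summed to 302.4 and 281.4 FPKM. Differentiation in hypoxia gave 0 higher and 5 lower of the 10, against 40.9% of all called (23.3% higher, 17.6% lower). Etv5 was at 10.5 and 11.3 FPKM in differentiation-normoxia and 0.785 and 1.67 in differentiation-hypoxia, while Etv1 fell by 1.92 on the log2 scale with normoxic differentiation, so the list did not move one way in that comparison.

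**Figure D5:**
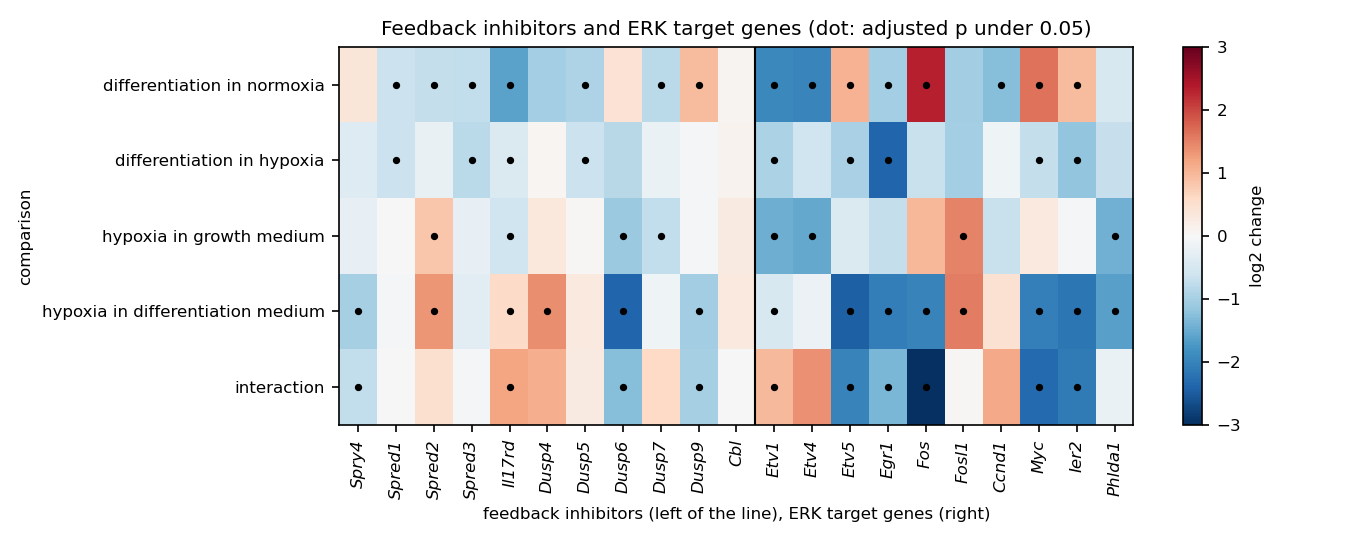
Log2(FPKM + 1) change (colour, from -3 to 3) of 11 feedback inhibitors and 10 ERK target genes (columns) in the 5 comparisons (rows); a dot marks an adjusted p below 0.05. With hypoxia in differentiation medium Dusp6 lies at -2.37 and Etv5 at -2.45, beside -2.54 for Spry1 and -1.41 for Spry2, which are not drawn.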

How the data were processed

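The authors deposited 1 gene table for the 8 RNA-seq libraries, read here as FPKM and made with tools that include Cufflinks per the submitters' processing notes. The name of the table speaks of counts, and the unit was read from its values. These are not whole, and low values of Fgf1, Fgf2, Fgf21 and Fut1 are multiples of a step that differs between these genes. No such step was recovered for the 4 receptors, Fgf7, Spry1 or Spry2. Per the submitters' processing notes, STAR 2.5.1b, Cufflinks 2.2.1 and mm9 were used. Libraries were stranded and made from total RNA, per the labels' protocols. The annotation, whether counting used strand, and scaling between libraries are not given in the sources used here.

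Genes whose mean reached 1 FPKM in 1 or more of the 4 groups were tested with limma 3.58.1 (R 4.3.3) on log2(FPKM + 1). The fit used an intensity trend and 4 group means over the 8 libraries, with 4 residual and 2.61 prior degrees of freedom, and two-sided p-values with Benjamini-Hochberg adjustment over 12389 genes. The code was tested on simulated data. From the other lists, at most the 4 genes with the largest called change per comparison were named as changed. Fgf18, Klb, Kl, Atf4, Spry4 and the chromosomal neighbours were named after their values were seen. Likeness was computed for genes whose group means span at least 1 on the log2 scale, and the 3 nearest tested genes were taken. Members and lists were chosen with earlier results of these data known. The 18 alternatives covered pseudocounts, filters, scalings, libraries fitted, weights, variance moderation, the replicate block and leaving out each library. Absolute depth is unknown. Relative depth and fragment numbers were read from the steps of low values. Pairs A and B are biological replicates per the series' design.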

Additional observations from a re-analysis of the deposited data

Results flagged for a closer look

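The interaction is a different response to differentiation medium at the 2 oxygen levels, and it was called for 5 of the 9 tested genes. The test was limma with Benjamini-Hochberg adjusted p over all tested genes. Of all tested genes 54.1% were called, so the count of 5 of 9 was near the background. Fgf21 had an interaction of -7.78 on the log2(FPKM + 1) scale (adjusted p = 3.11e-06), since it changed by 9.13 in normoxia and 1.35 in hypoxia. Fgfr3 had -2.28 (adjusted p = 0.00301) and Spry1 had -1.99 (adjusted p = 7.70e-05). In the other direction, Fgfr4 had 1.05 (adjusted p = 0.00372) and Fgfr2 had 0.88 (adjusted p = 0.00713). The value of Fgfr3 was -1.81 without hypoxic differentiation replicate A and -2.75 without replicate B, and that of Fgfr2 was 1.06 and 0.71.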

How the results depend on the processing

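For the 9 tested genes, 45 changes were recomputed under the alternatives, giving 791 values. Of these, 764 stayed on their side of the threshold with the same sign, 14 lost the call, 11 gained it and 2 changed sign, both of them uncalled changes: Fgf7 in the interaction (-0.052 under median-of-ratios scaling) and Fgfr2 with differentiation in hypoxia. Leaving out 1 library at a time, the Fgfr2 value ranged from -0.000205 to 0.36. Over all tested genes, calls for differentiation in hypoxia numbered 5073, against 2867 when only the 4 libraries compared were fitted and 2501 to 6529 when 1 library was left out. Calls for hypoxia in growth medium numbered 5135, and 2997 to 6844 with 1 library left out. The lone library left in a group is then assumed to vary like the other groups. The lowest counts came without hypoxic growth replicate B and A respectively, and the cause was not tested. With the replicate block, the numbers of the 9 genes called were 9, 5, 6, 8 and 5, as without it, and over all tested genes the calls for differentiation in hypoxia numbered 4453. The letters A and B were not treated as pairs, since the differences A minus B correlated between groups at -0.17 to 0.04 across genes. With a filter at 5 FPKM, 7, 4, 5, 7 and 4 of the 9 genes were called, because fewer of them were tested. Among 149 changes of other named genes, 2491 of 2643 values stayed and 152 lost the call.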
